A study of Mus musculus with 4 samples.

Results

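The S100 genes of the mouse gastric corpus were described across 4 microarrays taken after high-dose tamoxifen or its vehicle. Of 10 S100 genes chosen by their exact symbol in the platform annotation, 9 had a probe set of their own, out of 18193 genes read by the array. The exception was S100a11, whose single probe set also carries 2 other symbols, so no value was assigned to the gene. The 9 genes were read by 13 probe sets, 1 each for 6 genes and several for S100a1, S100a10 and S100a16. Where a gene had several, the brightest on average was used, and the others are given beside it.

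By the labels, 1 array was from mice given vehicle and dissected at 2.5 days, and 1 array each was from mice given tamoxifen and dissected at 12 hours, at 2.5 days or at 4.5 days. Each array held RNA pooled from 3 mice. All mice were wild type and 6 weeks old, of the C57BL/6, BALB/c and FVB/N strains, and the labels tie no strain to an array. Mice received tamoxifen, which binds estrogen receptors and modulates them by tissue, in the peritoneum at 5 mg per 20 g of body weight, in 10% ethanol and 90% sunflower seed oil, over 1 or 3 days that the labels do not assign to arrays. The treatment was meant to induce SPEM, spasmolytic polypeptide-expressing metaplasia, in which corpus glands take on features of mucous neck cells. With 1 pool per group there was no measure of how mice vary, so differences are given without a test. Vehicle was taken at 2.5 days only, and the same array stands in all 3 comparisons with tamoxifen.

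S100 proteins are small calcium-binding proteins with a pair of EF-hand motifs that mostly act as dimers. Inside the cell they bind target proteins such as annexins, myosin and cytoskeletal proteins when calcium rises, and some members are released and act on receptors including RAGE and TLR4. S100A8 and S100A9 form the heterodimer calprotectin, which is abundant in neutrophils and monocytes, sequesters metal ions and can also be made by stressed epithelium. In the mouse most S100 genes lie in clusters on chromosome 3, within and beside the epidermal differentiation complex that holds the genes of the cornified envelope. In the RefSeq annotation of GRCm38.p6 the 10 genes were all on chromosome 3, in the order S100a1, S100a13, S100a14, S100a16, S100a4, S100a6, S100a8, S100a9, S100a11 and S100a10. No other protein-coding gene lay between S100a8 and S100a9, whereas 56 lay between S100a9 and S100a11, among them the loricrin gene Lor and the Sprr and Lce families.

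Values are log2 RMA expression, on which a difference of 1 is 2-fold. A gene was counted as expressed in a comparison if the brighter of the pair of arrays was at or above its own median over all probe sets, which was 5.30 to 5.34. The 18 hybridisation control probe sets, which are spiked into every hybridisation, differed from vehicle by -0.09 to 0.20 at 12 hours, by -0.31 to -0.04 at 2.5 days and by -0.29 to -0.03 at 4.5 days. Their means were 0.04, -0.13 and -0.16, and 59.1%, 73.9% and 75.2% of expressed genes lay outside those ranges. Centring arrays on these controls therefore raises every difference from vehicle by 0.13 at 2.5 days and by 0.16 at 4.5 days, while centring on expressed genes removes shifts of -0.06, 0.06 and 0.02 at the 3 times, so S100 differences of about these sizes depend on the scale. Markers of the labelled tissue were present in all pools, with the proton pump gene Atp4a at 12.71, 12.04 and 12.28 on the tamoxifen arrays and 13.38 in vehicle. Smooth muscle genes were present too, with Actg2 at 11.61, 11.46 and 11.61 on the tamoxifen arrays and 12.42 in vehicle, so by these markers the pools were not epithelium alone. The 12-hour array stood apart in tissues other than the gastric glands. There, 10 of 11 pancreatic acinar genes were at least 2-fold higher than vehicle, with a median difference of 6.54. Their summed level on the log2 scale was 16.29 against 14.73. Clps, the 1 acinar gene within 2-fold, made up most of the vehicle sum, at 14.64 at 12 hours and 14.67 in vehicle. All 10 expressed genes of the squamous list were at least 2-fold lower than vehicle at 12 hours. In bulk RNA, fewer cells of a type and less RNA per cell cannot be told apart.

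Among the S100 genes, S100a8 and S100a9 were the 2 that differed by at least 2-fold in any of the 5 comparisons made. S100a8 was higher than vehicle at 12 hours and highest at 2.5 days, and S100a9 was higher than vehicle at 2.5 days. On the 4.5-day array both were again far below the 2.5-day level. By the probe sets read, the other 7 genes stayed between -0.33 and 0.45 of vehicle on every tamoxifen array. The second probe set of S100a1 differed by -0.40 at 2.5 days.

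**Figure D1:**
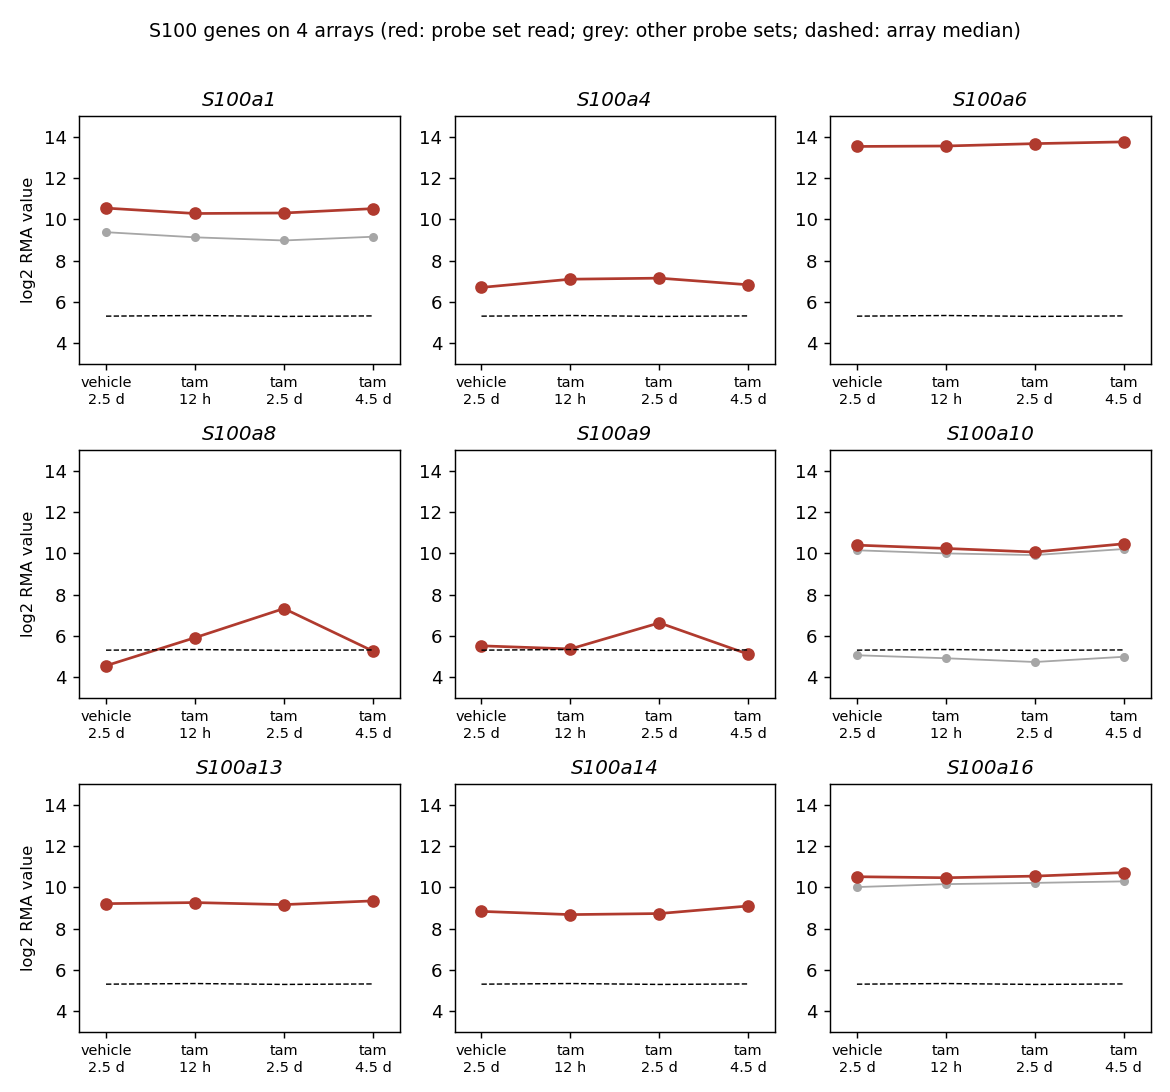
Level of each of the 9 S100 genes (vertical axis, log2 RMA value) on the vehicle array and the 3 tamoxifen arrays in time order (tam, tamoxifen). Red points are the probe set a gene was read from, grey points its other probe sets and the dashed line the array median; S100a8 and S100a9 peak at 2.5 days, at 7.33 and 6.63, while the other genes keep nearly level lines.

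Since S100a8 and S100a9 are neighbours on the chromosome and both peaked at 2.5 days, the 250 bases before the annotated start of each are shown, 5′ to 3′ on the gene's strand, as RefSeq gives them in GRCm38.p6. The S100a8 window is chr3:90668821-90669070 on the plus strand and the S100a9 window is chr3:90695722-90695971 on the minus strand. Capitals mark matches, on either strand, to any of 5 motifs searched.
S100a8: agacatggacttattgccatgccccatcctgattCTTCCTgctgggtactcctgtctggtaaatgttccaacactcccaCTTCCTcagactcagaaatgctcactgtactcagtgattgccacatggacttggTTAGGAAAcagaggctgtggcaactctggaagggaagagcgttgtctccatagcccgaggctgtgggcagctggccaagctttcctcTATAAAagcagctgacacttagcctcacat
S100a9: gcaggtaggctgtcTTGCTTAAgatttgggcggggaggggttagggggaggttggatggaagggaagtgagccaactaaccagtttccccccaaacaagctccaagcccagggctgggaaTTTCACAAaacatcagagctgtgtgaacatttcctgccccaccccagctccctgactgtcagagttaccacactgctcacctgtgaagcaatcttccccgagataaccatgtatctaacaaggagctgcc

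The motifs were the TATA box TATAAA, the C/EBP motif TTNNGNAA, the AP-1 motif TGANTCA, the ETS motif AGGAAG and the STAT motif TTCNNNGAA. In S100a8 the capitals are a TATA box from 30 to 25 bases before the start, a C/EBP match from 117 to 110 bases before it and 2 ETS matches. In S100a9 they are 2 C/EBP matches, the nearer of them from 130 to 123 bases before the start. No matches overlapped. Promoters were at hand for 8 of the 10 genes, and 2 of the 8, S100a8 and S100a9, held a C/EBP match. The TATA box was also found in S100a4, and the ETS motif also in S100a4 and S100a16. The AP-1 motif was found in S100a11 and S100a16. Of 32851 windows of this length over all genes, 36.9% held the C/EBP motif, 29.5% the ETS motif and 12.4% the TATA box. The shares were 7.02% for the STAT motif and 6.75% for AP-1. These matches describe letters in a window and were not tested for binding.

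S100a8, whose product is the smaller subunit of calprotectin, had a log2 level of 4.56 in vehicle, 5.92 at 12 hours, 7.33 at 2.5 days and 5.27 at 4.5 days. All tamoxifen arrays lay above vehicle, and the vehicle and 4.5-day values were below their array medians, where RMA compresses differences. Against vehicle S100a8 differed by 1.36 at 12 hours, which is 2.57-fold, by 2.77 at 2.5 days, which is 6.84-fold, and by 0.71 at 4.5 days. At 2.5 days 7 of 12295 expressed genes, S100a8 included, were as much higher than vehicle. At 12 hours 73 of 12253 expressed genes were.

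S100a9, which encodes the larger calprotectin subunit, had a log2 level of 5.52 in vehicle, 5.37 at 12 hours, 6.63 at 2.5 days and 5.11 at 4.5 days. The 2.5-day array stood alone above the others, and the remaining values all lay within 0.41 of each other, close to their array medians. Against vehicle S100a9 differed by -0.15 at 12 hours, by 1.12 at 2.5 days, which is 2.17-fold, and by -0.41 at 4.5 days, which was -0.24 when arrays were centred on hybridisation controls. Both genes were read by 1 probe set each, that of S100a8 of the kind that can match more than 1 transcript.

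Counted over the family, 1 of the 9 genes was at least 2-fold higher than vehicle at 12 hours, where 0.996% of expressed genes were. At 2.5 days 2 of 9 were, against 3.32% of all expressed, and at 4.5 days none of the 8 expressed ones was, against 3.8%. None was at least 2-fold lower at any time, where the shares of expressed genes were 1.92% at 12 hours, 1.94% at 2.5 days and 2.72% at 4.5 days. The median difference of the 9 genes was -0.05, 0.03 and 0.13 at the 3 times, beside -0.04, 0.02 and 0.00 for all expressed genes, and the first 2 of these medians changed sign when arrays were centred on expressed genes. The counts rest on single arrays and carry no test, and since S100a8 and S100a9 are dim, a filter at the 75th percentile of the array would leave 0 S100 genes counted at each time.

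**Figure D2:**
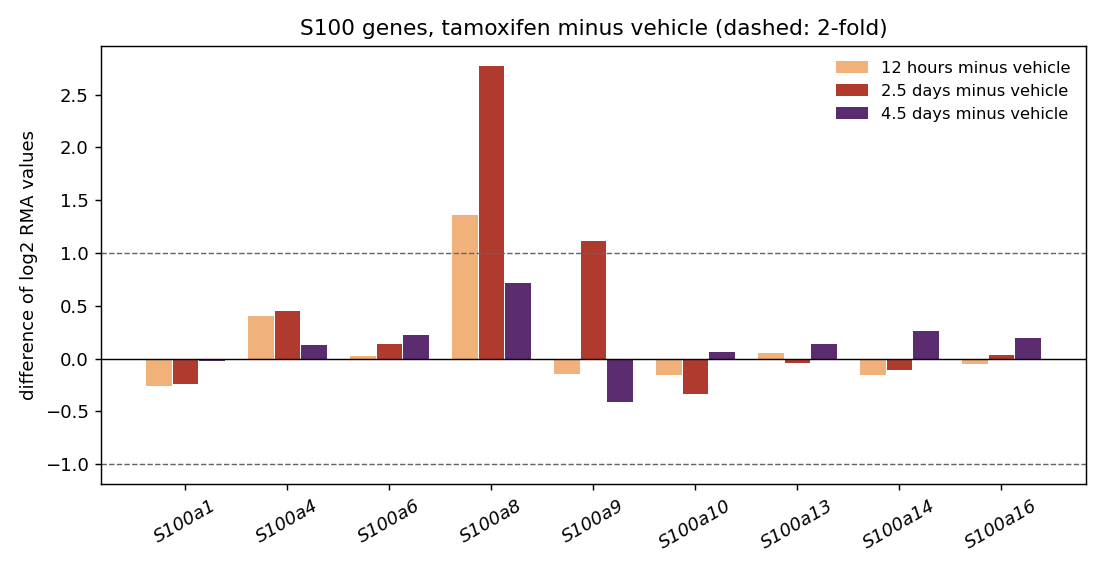
Difference from vehicle (vertical axis, log2 RMA values, tamoxifen minus vehicle) of the 9 S100 genes on the 3 tamoxifen arrays in time order, with 1 array per group and dashed lines at 2-fold. The bars of S100a8 at 12 hours and 2.5 days, 1.36 and 2.77, and that of S100a9 at 2.5 days, 1.12, pass the upper line.

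Between tamoxifen arrays the pair moved together. S100a8 was higher at 2.5 days than at 12 hours by 1.41 and S100a9 by 1.27, where 2.58% of expressed genes were at least 2-fold higher and 0.655% lower. At 4.5 days S100a8 was lower than at 2.5 days by a difference of -2.06 and S100a9 by -1.52. Few expressed genes differed by 2-fold between the 2.5-day and 4.5-day arrays. Of 12117, 0.182%, 22 in number, were at least 2-fold lower at the later time, and 0.248% higher. Counting S100a8 itself, 5 genes were as low as S100a8 or lower in that step, and counting S100a9 itself, 9 were as low as S100a9. Neither vehicle nor the 12-hour array entered this last step.

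**Figure D3:**
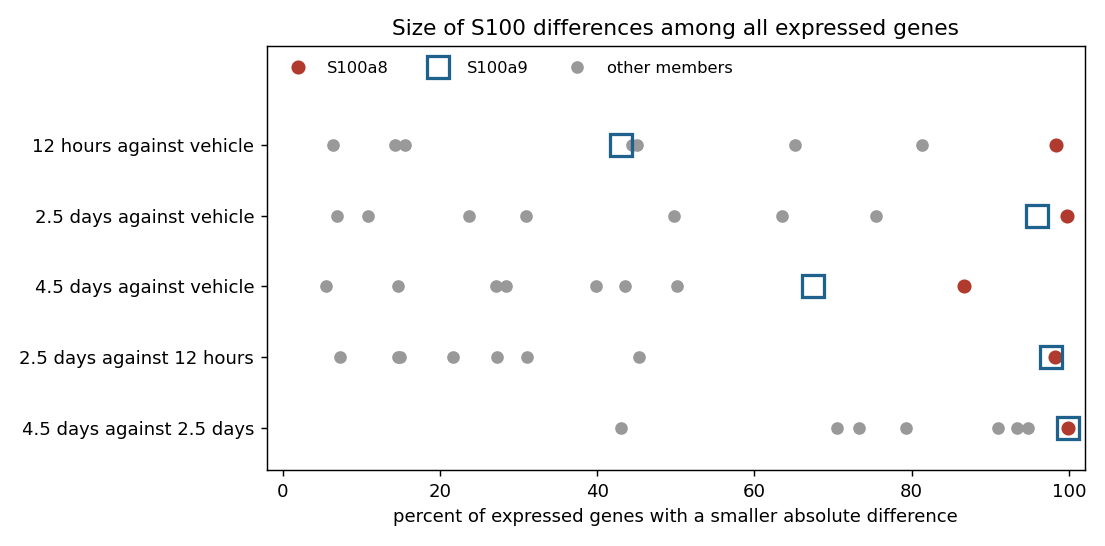
For each of the 5 comparisons (rows), the percent of expressed genes whose absolute log2 difference was smaller than that of each S100 gene (horizontal axis); red points are S100a8, blue open squares S100a9 and grey points the other 7 genes. In the step from 2.5 to 4.5 days S100a8 and S100a9 both sit at 99.9%, and in all rows at least 1 grey point sits under 50%.

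Markers of the cells that carry calprotectin are given beside this result. Of 15 neutrophil genes measured, S100a8 and S100a9 not among them, 8 were below the array median on all 4 arrays, including the granule genes Mpo, Elane and Mmp8 and the receptor genes Csf3r and Cxcr2. Their median difference from vehicle was 0.28 at 12 hours, 0.12 at 2.5 days and -0.11 at 4.5 days, and their summed level on the log2 scale was 9.41, 9.53 and 9.09 on those arrays and 8.93 in vehicle. Of the 6 expressed at 2.5 days 2 were at least 2-fold higher than vehicle, Lcn2 and Cxcl2. Lcn2, an iron-scavenging lipocalin made by neutrophils and by epithelium, was at 5.67 in vehicle, 7.74 at 12 hours, 7.63 at 2.5 days and 5.14 at 4.5 days. Cxcl2, a chemokine that attracts neutrophils, was at 4.27 in vehicle, 4.68 at 12 hours, 6.01 at 2.5 days and 4.87 at 4.5 days. In the step from 2.5 to 4.5 days these were the 2 neutrophil genes at least 2-fold lower, by -2.50 for Lcn2 and -1.14 for Cxcl2. The median of the 15 genes in that step was -0.08. The other 4 of the 6 expressed there stayed within 2-fold, and among them the interleukin gene Il1b was higher by 0.64. Ltf, which encodes lactoferrin of neutrophil granules and glandular secretions, was above the array median throughout, at 6.39 in vehicle, 5.94 at 12 hours, 7.06 at 2.5 days and 7.13 at 4.5 days. Ltf was thus 1.13 higher at 2.5 days than at 12 hours, as was Cxcl2 by 1.32, and Ltf was not lower at 4.5 days. Clec4d, a lectin receptor of myeloid cells, was 0.64, 0.96 and 0.66 above vehicle at the 3 times.

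Macrophage and monocyte genes were broadly detected, 12 of 13 being above the array median on every array. Of the 12 expressed, 1 was above vehicle by 2-fold or more at 12 hours, 6 at 2.5 days and 3 at 4.5 days. Their median difference was 0.30, 0.99 and 0.76, and their summed level on the log2 scale was 12.24, 12.86 and 12.98 on the tamoxifen arrays and 12.10 in vehicle. At 4.5 days against 2.5 days their median was 0.07 and none differed by 2-fold, with single genes between -0.73 for Cd68 and 0.38 for Lyz2. At 2.5 days the lysosomal glycoprotein gene Cd68 was 1.55 above vehicle, Mpeg1, which encodes a pore-forming protein of macrophages, 1.40 above it and the endotoxin co-receptor gene Cd14 1.16 above it. These were the largest differences of the list. Other members differed little in that comparison, with Csf1r at 0.02, Adgre1 at 0.04, Fcgr1 at 0.07 and Ccr2 at -0.21. The part of these cells in the S100a8 and S100a9 values was not tested.

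S100A8 and S100A9 are also known from squamous epithelium, the lining of the mouse forestomach. The 12 squamous genes had a median difference from vehicle of -4.75 at 12 hours, -0.31 at 2.5 days and 0.02 at 4.5 days. Their summed level on the log2 scale was 8.65, 12.84 and 13.04 on the tamoxifen arrays and 13.41 in vehicle. Of the 11 expressed at 2.5 days, Ivl was at least 2-fold higher than vehicle, by 1.98. Krt4 and Lor were at least 2-fold lower there, by -1.16 and -1.11. At 4.5 days Ivl differed from vehicle by 1.54 and Krt4 by -1.07, and no other expressed member reached 2-fold. At 12 hours, where Krt4 was at 4.74 against 10.89 in vehicle and Krt13 at 4.22 against 10.19, S100a8 was above vehicle and S100a9 was 0.15 below it. In the step from 2.5 to 4.5 days the squamous median was 0.19 and no expressed member differed by 2-fold. The part of squamous epithelium, or of the pancreatic RNA on the 12-hour array, in these values was not tested.

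The genes with a pattern closest to S100a8 were sought among 1159 genes that varied by at least 1 over the 4 arrays, by the root mean square difference of the log2 values after each gene was centred on its own mean. Chil3, a chitinase-like protein of macrophages and neutrophils, was closest at 0.22, with 5.02 in vehicle, 6.47 at 12 hours, 7.86 at 2.5 days and 5.28 at 4.5 days. Saa3, an acute-phase apolipoprotein, followed at 0.44 and Cxcl2 at 0.47. For S100a9 the closest were Hdc, which encodes histidine decarboxylase, at 0.21, the lymphocyte chemoattractant gene Cxcl13 at 0.36 and Cxcl2 at 0.36. Hdc was at 8.23 in vehicle, 8.13 at 12 hours, 8.89 at 2.5 days and 7.87 at 4.5 days. All 5 genes were highest at 2.5 days, as were S100a8 and S100a9, for likeness to which they were picked. With 4 points each this likeness is a description only.

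**Figure D4:**
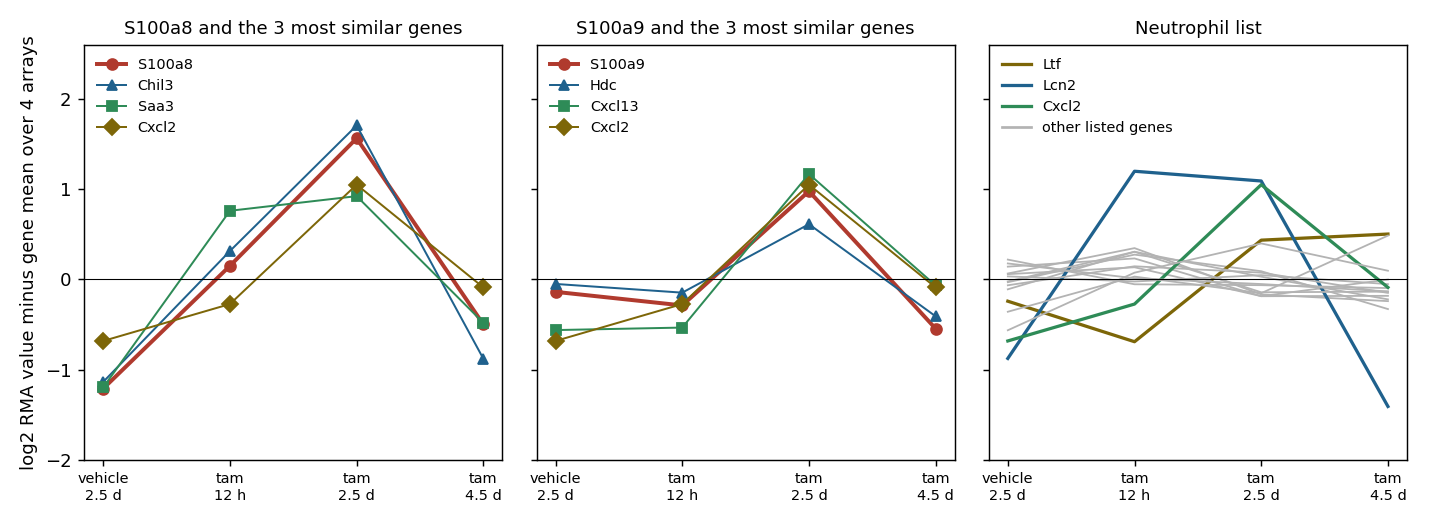
Log2 RMA values after subtraction of each gene's mean over the 4 arrays (vertical axis), on vehicle and the 3 tamoxifen arrays, for S100a8 (left) and S100a9 (middle) with the 3 genes of most similar pattern, and for the 15 measured genes of the neutrophil list (right). S100a8 and Chil3 run close together, 0.22 apart in root mean square, and of the neutrophil list Lcn2, Cxcl2 and Ltf are the lines that span more than 1.

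Of the receptors and binding partners of S100 proteins, 16 of 18 listed genes were measured and 13 were expressed in each comparison. None was at least 2-fold higher than vehicle at any time, and 1 was at least 2-fold lower, at 4.5 days. This was Cd36, a fatty acid scavenger receptor that also binds calprotectin with its arachidonic acid, at 9.84 at 12 hours, 9.05 at 2.5 days and 8.35 at 4.5 days against 10.00 in vehicle. Its differences from vehicle were -0.16, -0.95 and -1.65, so that the tamoxifen arrays lay lower with time. The list's median difference was 0.08, -0.01 and 0.03, beside -0.04, 0.02 and 0.00 for all expressed genes. The genes of this list named below besides Cd36 were picked for their role, with their values known.

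Among receptors of released S100 proteins, Ager, which encodes RAGE, was below the array median on all 4 arrays, at 4.77, 5.13 and 5.26 on the tamoxifen arrays and 4.75 in vehicle. Tlr4, the endotoxin receptor that S100A8 and S100A9 can engage, was detected on every array, at 7.76, 7.64 and 7.41 on the tamoxifen arrays and 7.44 in vehicle. Bsg, which encodes basigin, a receptor described for S100A9, was at 11.51, 11.20 and 11.14 on the tamoxifen arrays and 11.67 in vehicle. None of these 3 receptors differed from vehicle by 2-fold.

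S100a10 encodes p11, which has lost calcium binding and forms a constant heterotetramer with annexin A2 at the membrane. Its log2 level was 10.40 in vehicle, 10.24 at 12 hours, 10.07 at 2.5 days and 10.47 at 4.5 days. The 2.5-day array was lowest, by -0.33 from vehicle, and the other bright probe set of the gene was lowest there too, by -0.23. Centred on hybridisation controls the difference of S100a10 was -0.21 at 2.5 days, and that at 4.5 days was 0.23 in place of 0.07. The third probe set, which lay under the array median throughout, differed by -0.33 at 2.5 days. In the step from 2.5 to 4.5 days S100a10 was higher by 0.40, with 0.29 and 0.25 from its other probe sets. The probe set read is of the kind that may cross-hybridise. Anxa2, the partner of p11, was at 11.66 in vehicle, 11.83 at 12 hours, 12.05 at 2.5 days and 12.29 at 4.5 days, so at 2.5 days it lay 0.38 above vehicle where S100a10 lay below it. Ahnak, a giant scaffold protein bound by that complex, stayed within 0.09 of vehicle on all tamoxifen arrays.

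S100a6 encodes calcyclin, which binds the ubiquitin pathway adaptors CacyBP and Sgt1 and is linked to proliferating epithelium and fibroblasts. It was at 13.54 in vehicle, 13.56 at 12 hours, 13.68 at 2.5 days and 13.76 at 4.5 days. These values are near the top of the scale, where the highest value per array was 14.75 to 14.85. Its differences from vehicle were 0.02, 0.14 and 0.22, and with arrays centred on hybridisation controls they were -0.02, 0.27 and 0.39. Cacybp, which encodes the first of these adaptors, lay further above vehicle, by 0.31, 0.59 and 0.72 at the 3 times, and Sugt1, which encodes the second, by 0.21, -0.01 and 0.08.

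S100a4, known as fibroblast-specific protein and also expressed by macrophages and lymphocytes, binds non-muscle myosin. Its level was 6.70 in vehicle, 7.10 at 12 hours, 7.15 at 2.5 days and 6.83 at 4.5 days. All tamoxifen arrays were above vehicle, by 0.40, 0.45 and 0.13, the last of which was 0.29 when arrays were centred on hybridisation controls. At 12 hours 81.3% and at 2.5 days 75.5% of expressed genes differed from vehicle by less in size. The 9 fibroblast genes had a median difference of -0.17, 0.07 and 0.20 at the 3 times, and the macrophage medians given above were 0.30, 0.99 and 0.76. The summed level of the fibroblast genes on the log2 scale was 14.32, 14.56 and 14.66 on the tamoxifen arrays and 14.52 in vehicle, with all 9 above the array median throughout. The part of either cell type in the S100a4 values was not tested. Myh9, the heavy chain of its myosin partner, was 0.15, 0.14 and 0.18 above vehicle.

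S100a1, a regulator of calcium cycling best known from cardiac muscle, was at 10.55 in vehicle, 10.29 at 12 hours, 10.31 at 2.5 days and 10.53 at 4.5 days. The 12-hour and 2.5-day arrays were lower than vehicle, by -0.26 and -0.24, the second of which was -0.11 when arrays were centred on hybridisation controls, and its second probe set gave -0.25, -0.40 and -0.22 at the 3 times. At 4.5 days the probe sets differed in size, since the one read gave -0.03, which turned to 0.14 under that centring. Smooth muscle genes were lower than vehicle on the same arrays, with medians of -0.35, -0.62 and -0.68 and a summed log2 level of 14.87, 14.64 and 14.63 on the tamoxifen arrays and 15.23 in vehicle, all 7 being above the array median. Their part in the S100a1 values was not tested. The S100a1 probe set read is, like that of S100a8, of the kind that can match several transcripts.

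S100a13, whose product takes part in the unconventional export of FGF1 and interleukin 1 alpha, lies next to S100a1 on the chromosome. On the deposited scale it varied least of the 9 genes, with 9.22 in vehicle, 9.27 at 12 hours, 9.17 at 2.5 days and 9.35 at 4.5 days, and its largest difference from vehicle, at 4.5 days, was 0.13, or 0.30 when arrays were centred on hybridisation controls. Of its cargo genes Fgf1 was below vehicle, by -0.32, -0.51 and -0.54, and Il1a was below the array median on all 4 arrays.

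S100a14, an epithelial member, and S100a16 are chromosomal neighbours. S100a14 was at 8.84 in vehicle, 8.68 at 12 hours, 8.74 at 2.5 days and 9.10 at 4.5 days, so that the 4.5-day array was the highest and the first 2 tamoxifen arrays lay slightly under vehicle, the second of them above it when arrays were centred on hybridisation controls. Its difference of 0.26 at 4.5 days was 0.43 under that centring. S100a16 was at 10.52 in vehicle, 10.47 at 12 hours, 10.55 at 2.5 days and 10.72 at 4.5 days, and its second probe set lay above vehicle on all tamoxifen arrays, by 0.14, 0.20 and 0.28. The 4.5-day difference of the S100a16 probe set read was 0.20, and 0.36 when arrays were centred on hybridisation controls. At 4.5 days the 11 measured genes of mucous neck cells and SPEM had a median difference from vehicle of 1.30, with 7 at least 2-fold higher, and the 5 chief cell genes a median of -2.44, all at least 2-fold lower. Their part in the S100a14 and S100a16 values was not tested. At 12 hours, where the squamous genes were far below vehicle, S100a14 differed by -0.16 and S100a16 by -0.05, a value that turned positive when arrays were centred on expressed genes.

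In the step from 2.5 to 4.5 days, besides S100a8 and S100a9, S100a4 was lower by a difference of -0.32, while S100a10, S100a14, S100a1, S100a13 and S100a16 were higher by 0.40, 0.37, 0.21, 0.18 and 0.17, with S100a6 at 0.09. The second probe set of S100a16 gave 0.07. Of 12117 expressed genes 94.8% differed by less in size than S100a10 in this step, 93.4% less than S100a14, 91.0% less than S100a4 and 43.0% less than S100a6. The median over the 9 genes was 0.17, beside -0.02 for all expressed genes.

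Gastric lineage genes also differed in that step. The median of the mucous neck and SPEM genes was 0.36, with the stem cell-associated secreted protein gene Olfm4, by 2.57, and the water channel gene Aqp5, by 1.05, at least 2-fold higher, and their summed level on the log2 scale was 15.62 at 4.5 days and 15.55 at 2.5 days. The chief cell genes had a median of -1.12 and a summed level of 13.22 at 4.5 days and 14.68 at 2.5 days. The 3 of them at least 2-fold lower were the chitinase gene Chia1, by -2.18, and the pepsinogen genes Pgc, by -1.17, and Pga5, by -1.12. The 8 parietal cell genes had a median of 0.16 and the 6 surface mucous genes of -0.01. The part of these cells in the S100 differences of the step was not tested.

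Of the 6 listed S100 genes outside the 9, 4 were measured and none differed by 2-fold in any comparison. S100a3 and S100a5 were below the array median on all 4 arrays. S100g, the vitamin D-dependent calbindin D9k of the intestine, came closest to 2-fold, 0.94 above vehicle at 4.5 days at 7.02 against 6.08, and was picked after its values were seen. The fused-type S100 genes, which carry an S100 domain at the start of a long structural protein of squamous epithelium, were far lower at 12 hours. Flg, Hrnr and Rptn, the 3 of 5 measured that were expressed, differed from vehicle by -5.19, -4.19 and -6.68 there. At 2.5 days they differed by -0.93, -1.30 and -1.14, and at 4.5 days by -0.48, -0.99 and -0.88. The 9 single S100 genes had differences of -0.26 to 1.36 at 12 hours.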

How the data were processed

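RNA of pooled gastric corpus epithelium was measured on 4 arrays. The authors deposited log2 expression values of 45101 probe sets, which the submitters' processing notes credit to Partek and RMA without versions. The range of the values, 2.06 to 14.85, is the basis for reading them as log2. RMA gives all arrays 1 distribution, which hides any change common to most genes. The platform annotation gave 34945 probe sets 1 symbol, 932 several and 9211 none, and 34741 of the first matched RefSeq gene IDs with no symbol changed. Differences of log2 values were taken with Python 3.11.15 and pandas 2.3.3, with counts of genes that reached 2-fold. The 1 array per group allowed no test, and the number of arrays limits the precision. The counting was tested on simulated data. Alternatives changed the probe set, the scaling, the filter on dim genes and the fold. The named genes are all 9 S100 genes with a value, expressed listed genes past 2-fold, and for each S100 gene with a range of at least 1 the 3 genes of nearest pattern. Of each cell type list up to 3 genes with the largest differences were to be named, and others were picked as defining markers. The S100 genes, the lists and the promoter motifs were chosen with earlier results of these data known. Promoter sequences are from RefSeq.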

Additional observations from a re-analysis of the deposited data

Results flagged for a closer look

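S100a9 lay on both sides of vehicle across time: its log2 difference was -0.15 at 12 hours, 1.12 at 2.5 days and -0.41 at 4.5 days. S100a14 also changed sides, with -0.16 at 12 hours, -0.10 at 2.5 days and 0.26 at 4.5 days. These opposite directions come from single arrays that share 1 vehicle array, and the difference between times was not tested.

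The probe set that carries S100a11 together with its pseudogene S100a11-ps and the predicted gene Gm12854 lies outside the comparisons above. Its signal was above vehicle on all 3 tamoxifen arrays, by 0.48 at 12 hours, 0.54 at 2.5 days and 0.71 at 4.5 days, at 12.96, 13.02 and 13.19 against 12.48 in vehicle. It was flagged by rule, because each difference exceeded the largest one of the hybridisation controls in that comparison. Of expressed genes 59.1%, 73.9% and 75.2% lay outside the range of those controls at the 3 times. These shares count both sides of the range and are not the shares that pass this rule. At 12 hours 870 of 12253 expressed genes were at least 0.40 above vehicle. At 2.5 days 1792 of 12295 were at least 0.45 above it, and at 4.5 days 965 of 12303 at least 0.71. The signal cannot be assigned to 1 of the 3 symbols.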

How the results depend on the processing

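No paired analysis was possible because each group held 1 array. The counts of S100 genes at least 2-fold higher or lower were unchanged under both other probe set rules, both other scalings, 1.5-fold and no filter. The 1.5-fold setting kept the filter and the setting with no filter kept 2-fold. At 4.5 days S100a8 was 1.64-fold above vehicle. It went uncounted at 1.5-fold because its vehicle and 4.5-day values lay below their array medians. S100a8 and S100a9, the genes counted, have 1 probe set each, so the probe set rules could not change their values. With the filter at the 75th percentile, chosen for these genes after the data were seen, they were 0 in all 5 comparisons, because S100a8 and S100a9 were then no longer counted as expressed. Of 180 single S100 differences recomputed, 147 moved by less than the SD of the hybridisation controls, and no 2-fold difference changed sign. The 6 genes with 1 probe set could not move under the probe set rules. Shifts from scaling were too small to turn a 2-fold difference. The other 33 moved by more than that SD, 27 of them with arrays centred on the hybridisation controls. That centring removes a shift of -0.13 at 2.5 days and -0.16 at 4.5 days against vehicle and of -0.17 at 2.5 days against 12 hours, which turned the sign of S100a13 and S100a14 at 2.5 days, of S100a1 at 4.5 days and of S100a13 at 2.5 days against 12 hours. At 12 hours against vehicle it removes a shift of 0.04, which turned the sign of S100a6. The S100 medians became 0.16, 0.30 and 0.22 under it at 2.5 days, at 4.5 days and at 2.5 days against 12 hours. Centring on expressed genes removes a shift of 0.12 in the step from 12 hours to 2.5 days, which turned the sign of 5 S100 genes there. With the mean of all probe sets the 2.5-day median was 0.12, and with the probe set of median difference that of the last step was 0.085.

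For all expressed genes, centring on hybridisation controls gave 560 higher and 179 lower at 2.5 days against 408 and 238, and 701 and 227 at 4.5 days against 468 and 335. At 1.5-fold the higher and lower counts were 413 and 693 at 12 hours, 1191 and 741 at 2.5 days and 1322 and 1010 at 4.5 days, and 918 and 278, then 113 and 142, in the steps. The 75th percentile filter left 76 and 271 higher at 12 hours and 2.5 days, and 188 and 14 in the steps. The probe set of median difference gave 194 in the first step. The cause was not tested.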
